A study of Mus musculus with 4 samples.

Results

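The comparison described here sets macrophages of miR-7 deficient mice against macrophages of wild-type mice, both left unstimulated. It uses 2 of the 4 libraries of the series, 1 a side, and covers the 15026 autosomal genes, of 52550 gene entries, that had 10 or more counts in either of them. All 4 libraries share the cell type, macrophages grown from bone marrow, the strain, C57BL/6, and an age of 8 to 10 weeks. The other pair, wild-type and miR-7 deficient cells given lipopolysaccharide (LPS, a bacterial cell wall component) at 100 ng/mL for 12 h, shares no library with the resting pair and is placed beside it. The sources used here do not say how the deficiency was made, which miR-7 gene it concerns, or whether LPS-treated and resting cells came from the same mice. The series text states that the counts served to find protein-coding genes lowered by miR-7.

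MicroRNAs are short RNAs that guide Argonaute proteins to messenger RNAs, mostly through pairing of bases 2 to 8, the seed, with sites in the 3′ untranslated region (3′ UTR), which lowers the level or the translation of the message. The miR-7 family is made from several loci in the mouse, is held to a low level in many tissues by regulated processing and decay, and has reported targets in growth factor, NF-kB and cytoskeletal pathways. Resting macrophages express lineage receptors, lysosomal and lipid-handling genes, and keep most inflammatory genes low until a stimulus such as LPS arrives.

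The mature miR-7 sequences are shown because the later grouping of genes by seed site rests on them. They come from RefSeq (GRCm38.p6), and the 3 miR-7 loci give 2 mature forms that share the seed, in capitals:
miR-7a-5p: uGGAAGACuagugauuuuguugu
miR-7b-5p: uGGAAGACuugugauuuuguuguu
A message pairing with bases 2 to 8 and carrying an A opposite base 1 holds the letters GTCTTCCA (an 8mer site). GTCTTCC is the 7mer-m8 site and TCTTCCA the 7mer-A1 site, each contained in the 8mer. Of the 44 reported miR-7 targets compared, 1 was higher and 1 lower by an interval wholly beyond 2-fold. The higher one was Relb, which carries an 8mer site. Its site is shown with 10 flanking bases each side and the site in capitals, beside those of Tmem127 and Rell1, the genes with an 8mer site and the highest summed resting counts among those beyond 2-fold outside the class described further down, which were picked after their values were seen. Positions are on GRCm38 (GENCODE M21):
Relb: accttgatcaGTCTTCCAgcttcctcat
Tmem127: aattaccaacGTCTTCCAggtgggaagc
Rell1: gccagatcctGTCTTCCAacaaaaaaag
The Relb window lies at chr7:19606462-19606489 on the minus strand, the Tmem127 window at chr2:127260146-127260173 on the plus strand, and the Rell1 window at chr5:63910234-63910261 on the minus strand.

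With 1 library a group there is no spread between replicates and no test, so every value describes these libraries. A level is in CPM, the count divided by the library total in units of 1e6 counts and by a scaling factor from the trimmed mean of M-values (TMM). A difference is the log2 ratio of scaled counts, deficient over wild type, with an exact Clopper-Pearson 95% interval in parentheses. That interval covers counting error only. A gene is called higher or lower where its whole interval is beyond 2-fold. Against 0 counts, a fold is computed from a floor of 3 counts in that library, 0.0641 CPM in the resting wild-type and 0.0765 CPM in the resting deficient library. In bulk RNA, fewer cells of a type and less RNA per cell cannot be told apart.

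Library totals were between 33937823 and 42074624 counts, with 40745230 in the resting wild-type and 33937823 in the resting deficient library. The libraries also differed in sex-linked genes. Xist, the RNA that silences the second X chromosome, had 24 counts in the wild-type and 28015 in the deficient resting library, and Tsix had 0 and 1344. The Y-linked genes Ddx3y, Eif2s3y, Kdm5d and Uty had 2013, 1927, 1032 and 531 counts in the wild-type and 9, 4, 0 and 0 in the deficient library. The LPS pair showed the same split, with Xist at 16 and 25701 counts and Ddx3y at 1537 and 12. The wild-type libraries thus carried male and the deficient libraries female transcripts, and sex and genotype cannot be told apart in any value below.

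A second feature concerns 96 genes whose wild-type resting count was 1 to 3% of their wild-type LPS count. Among 4619 genes with 1000 or more LPS counts in both genotypes, 67 had a resting count of 1 to 3% of the LPS count in wild type and 2 stood below 1%. In deficient cells 49 stood at 1 to 3%, 23 at 0.5 to 1% and 32 below 0.5%. In the plot of these percentages the wild-type genes stop near 1%, where the deficient genes go on to lower values. Whether transcripts of the LPS-treated library are present in the resting wild-type library was not tested. Results are therefore given with and without the 96 genes. Near the upper limit of that range, Marco stood inside at 2.94% with a log2 ratio of -1.68, and Clic5 outside at 3.08% with -2.07. An alternative took 1.852% of each wild-type LPS count off the wild-type resting count. That share is the median over 35 genes with 1000 or more wild-type LPS counts whose deficient resting count was under 0.5% of their deficient LPS count. Its interquartile range was 1.57 to 2.37%, and single genes ran from 0.375% to 137%. The 35 genes include Il6, Il1b, Il12b, Ccl5 and Cxcl10, described below. Any gene at or below the share keeps no wild-type counts by construction. Where such a gene has deficient counts, it ranks as higher in the list medians with the share taken off.

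**Figure D1:**
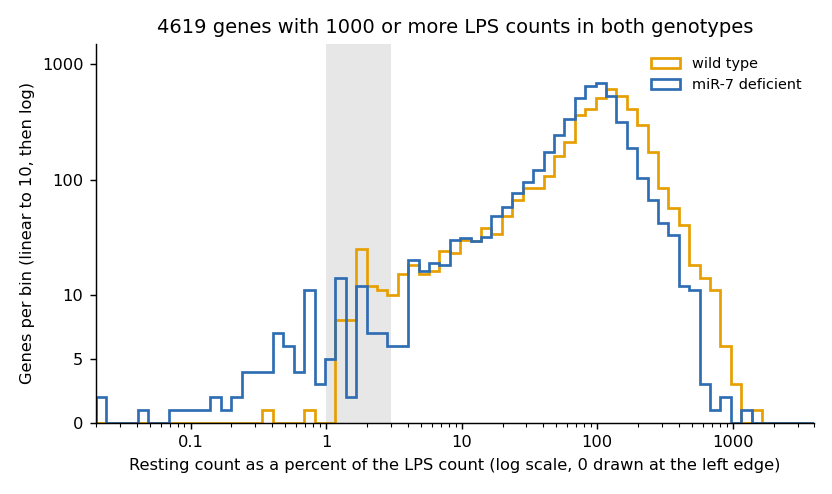
Resting count as a percent of the LPS count of the same genotype (log axis), for 4619 genes with 1000 or more LPS counts in both genotypes, with genes per bin on the vertical axis and the range of 1 to 3% shaded. Wild type has 67 genes in the shaded range and 2 below it, and deficient cells have 49 in it and 55 below it.

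The macrophage character of both libraries was checked first. Of 10 macrophage marker genes, all were present, and their summed level was 22932 CPM in wild-type and 23369 CPM in deficient cells. Most of each sum came from Lyz2. By log2 ratio, the intervals of 3 markers lay above 0 and of 7 below, with a median of -0.18. Csf1r, the receptor for the growth factor that sustains macrophages, stood at 2161 and 2350 CPM. Adgre1, which encodes the F4/80 antigen, stood at 429 and 387 CPM, Lyz2, lysozyme, at 17670 and 18594 CPM, and Cd68, a lysosomal glycoprotein, at 606 and 844 CPM. Itgam, the CD11b integrin chain, had 45147 and 11413 counts, log2 -1.73 (-1.76 to -1.70). Itgam shares exonic bases with the provisional gene Gm49368, which had 24298 and 34974 counts, and the 2 entries summed gave log2 -0.33. Fcgr1, the high-affinity antibody receptor, stood at 52.6 and 23.8 CPM, log2 -1.15 (-1.26 to -1.04).

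Markers of B cells, erythroid cells and T and NK cells were mostly at or near 0, while those of several other cell types were not. Of 10 B cell markers 7 and 8 were at 0 in wild-type and deficient cells, of 9 erythroid markers 5 and 8, and of 10 T and NK cell markers 6 and 5, with sums of at most 6.19 CPM in each library. The inflammatory monocyte markers summed to 3173 CPM in wild-type and 1149 CPM in deficient cells, a gap carried by Chil3. Megakaryocyte and platelet markers summed to 413 and 438 CPM, osteoclast markers to 1620 and 1801 CPM, and neutrophil markers to 957 and 810 CPM. The sums in wild-type and deficient cells were 43.6 and 37.1 CPM for endothelial, 29.4 and 38.3 CPM for dendritic cell, 12.5 and 12.6 CPM for mast cell, 12.0 and 15.4 CPM for granulocyte progenitor and 3.16 and 2.85 CPM for stromal markers. Of the 8 megakaryocyte and platelet genes compared, 3 were higher (Itga2b, Ppbp and Tubb1, all under 4 CPM) and 1 lower (Gp9, with 12 and 0 counts). Of 8 osteoclast genes compared, 2 were higher, Ocstamp and Mmp9. Over all genes outside the class 4.22% were higher and 2.57% lower. These shares were 9.72% and 8.23% for genes under 1 CPM, and 6% and 2.85% from 1 to 5 CPM. The part of these cell types in the differences below was not tested.

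Most genes lay close to equal. The median log2 ratio of all 15026 genes was -0.002, with quartiles at -0.26 and 0.31. Among them 640 (4.26%) were higher and 421 (2.8%) lower in deficient cells. Leaving out the 96 genes of the 1 to 3% class, 630 of 14930 (4.22%) were higher and 383 (2.57%) lower. Within the class, 10 of 96 (10.4%) were higher and 38 (39.6%) lower, with a median of -0.95. A share of these calls rests on absence: outside the class, 229 of the higher genes had 0 counts in wild type and 209 of the lower genes had 0 counts in deficient cells. Among 9575 genes outside the class with 5 CPM or more in either library, 206 (2.15%) were higher and 82 (0.856%) lower. Protein-coding genes made up 417 of the higher and 256 of the lower genes outside the class.

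**Figure D2:**
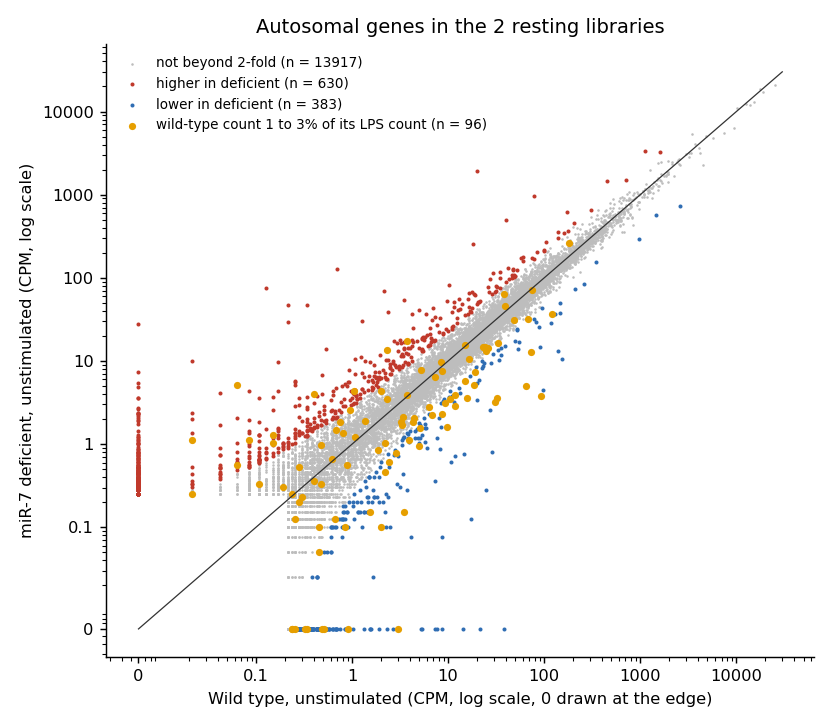
Each autosomal gene compared, by its level in the wild-type (horizontal) and miR-7 deficient (vertical) resting library, in CPM on log axes with 0 drawn at the edge. Outside the class, 630 genes lie above and 383 below the line of equal level by an interval wholly beyond 2-fold, and of the 96 genes of the class, 38 were lower in deficient cells.

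Several of the genes farthest above equal were nearly silent in both wild-type libraries. Cacna1a (chr8:84388440-84640246), the pore subunit of a P/Q-type calcium channel, had 33 counts in wild-type and 5040 in deficient resting cells, and 4 and 1219 in the LPS pair. Its log2 ratio was 7.51 (7.02 to 8.05) at rest and 8.08 with LPS. Fam177a (chr12:55124469-55142104) had 10 and 1155 counts at rest, log2 7.11 (6.22 to 8.17), and 0 and 2977 with LPS. Chil1 (chr1:134182176-134190181), a chitinase-like lectin gene, had 0 and 214 counts at rest, at least 85.1-fold higher, and 8 and 3822 with LPS. Kif21a, a kinesin motor gene, had 12 and 200 counts at rest, log2 4.31 (3.48 to 5.29), and 0 and 284 with LPS. Each of these 4 genes was low in both wild-type libraries and high in both deficient ones.

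For Mir692-2 the entry shares bases with the ferritin light chain pseudogene Ftl2-ps. Mir692-2 had 10 and 1826 counts and Ftl2-ps 924 and 76408, and the 2 together gave log2 6.64. Ferritin light chain has many near-identical copies, so the gene these reads came from is uncertain. Ftl1-ps1 and the overlapping Gm47428, on chromosome 13, were also higher in deficient cells, with 1864 and 19349 counts and 3670 and 38066 counts, while Ftl1 itself stood at 9512 and 6328 CPM, log2 -0.59 (-0.60 to -0.58), and with its overlapping entries at -0.72.

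Other genes far above equal at rest were not so in the LPS pair. Mmp9 (chr2:164940780-164955850), a gelatinase of leukocytes and osteoclasts, had 12 and 227 counts at rest, log2 4.5 (3.66 to 5.47), and 65 and 65 with LPS. Edn1, the vasoconstrictor peptide endothelin, had 23 and 265 counts at rest, log2 3.78 (3.16 to 4.46), and 433 and 408 with LPS. Thap12, a zinc-finger THAP-domain gene, stood at 4.17 and 36.4 CPM at rest, log2 3.13 (2.91 to 3.35), and at 25.8 and 27.4 CPM with LPS. Ttn, the muscle protein titin, had 12 and 217 counts at rest and 14 and 16 with LPS. In these 4 genes the deficient resting library stood apart from the wild-type resting library, and the LPS libraries lay within 0.26 of equal on the log2 scale. Epha4, an ephrin receptor, was higher at rest, 64 and 395 counts, log2 2.88 (2.50 to 3.28), and with LPS, 398 and 1383 counts, log2 1.62. Ttn and Edn1 share exonic bases with entries at 0 counts in both resting libraries.

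Among the genes farthest below equal, some were absent from deficient cells. Ear6 (chr14:51853699-51854643), a ribonuclease of the eosinophil-associated family, had 1781 and 0 counts at rest, at least 498-fold lower, and 1297 and 13 with LPS. The eosinophil markers, Ear6 included, summed to 114 CPM in wild-type and 110 CPM in deficient resting cells, with 5 of 10 at 0 in each. Nlrp1a (chr11:71092236-71144704), an inflammasome sensor, had 667 and 0 counts at rest, at least 186-fold lower, and 150 and 0 with LPS. Cyp4f18, a fatty acid hydroxylase, had 1344 and 32 counts at rest, log2 -5.14 (-5.69 to -4.63), and 644 and 0 with LPS. These 3 genes were low or absent in both deficient libraries. Fkbp11, a prolyl isomerase of the secretory pathway, stood at 14.8 and 0.765 CPM at rest, log2 -4.27 (-4.85 to -3.75), and at 11.5 and 1.23 CPM with LPS. Spint1, an inhibitor of serine proteases, stood at 138 and 13.1 CPM, log2 -3.39 (-3.52 to -3.26), and at 84.7 and 7.93 CPM with LPS. Slfn8, of the Schlafen family, stood at 19.9 and 3.36 CPM, log2 -2.57 (-2.84 to -2.30), and at 513 and 34.7 CPM with LPS. Spint1 thus had nearly the same ratio in both pairs, log2 -3.39 and -3.42.

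Gpr176, an orphan receptor, had 814 and 5 counts at rest, log2 -7.09 (-8.72 to -5.86), but 2569 and 1054 with LPS. Lrrc8d, a subunit of volume-regulated anion channels, stood at 154 and 10.6 CPM at rest, log2 -3.86 (-4.01 to -3.72), and at 16.3 and 159 CPM with LPS. Rnd2, a small GTPase gene, stood at 97.9 and 4.46 CPM at rest, log2 -4.46 (-4.68 to -4.24), and at 2.32 and 52.1 CPM with LPS. For Lrrc8d and Rnd2 the high libraries were wild type at rest and deficient with LPS. Rnd2 shares exonic bases with Vat1, and the sum of both entries gave log2 -0.28 at rest. The same check moved several other genes of this group toward equal. Hist2h2aa1 had 1013 and 0 counts, and with its overlapping entries log2 -0.70. Mis12, a kinetochore gene, had 1290 and 100 counts, and with Derl2 log2 -0.42, and Agbl5 with Ost4 gave -0.59 in place of -2.76. On the higher side, Hist2h3c1 had 8 and 380 counts, and with its overlapping entry log2 0.30. For Cacna1a (7.51), Gpr176 (-5.83), Cyp4f18 (-3.15) and Lrrc8d (-3.48) the sums stayed beyond 2-fold. Of all genes compared, 6125 share exonic bases with another entry, and how the authors' counting divided such reads is not stated. Sept2, a septin, had 4182 and 577 counts, log2 -2.60 (-2.73 to -2.48), and 1492 and 3014 with LPS. Fat3, a giant cadherin, had 498 and 24 counts at rest and 0 and 4 with LPS.

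**Figure D3:**
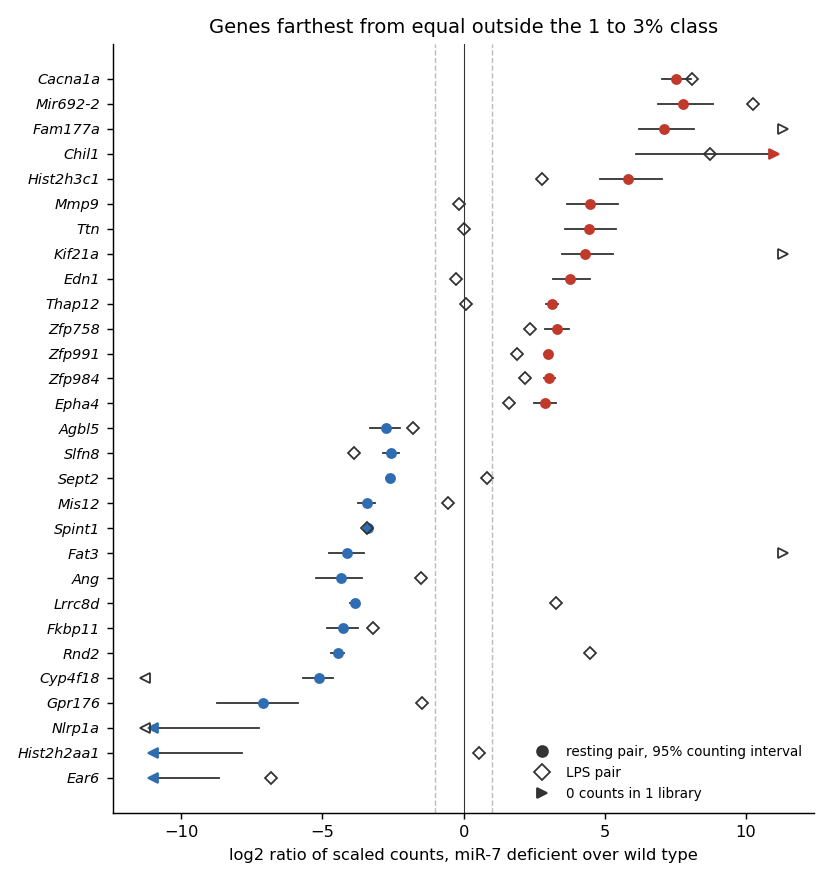
Log2 ratio of scaled counts, miR-7 deficient over wild type, for 14 genes farthest above and 15 farthest below equal by the nearer bound of the interval, outside the 1 to 3% class and at 5 CPM or more in either library. Filled symbols with lines give the resting pair with its 95% counting interval, open diamonds the LPS pair, and triangles a count of 0 in 1 library. Cacna1a and Spint1 lie on the same side in both pairs, and Lrrc8d and Rnd2 on opposite sides.

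Genes called in the resting pair were then read in the LPS pair, where 608 of 14851 genes (4.09%) were higher and 704 (4.74%) lower. Of the 630 genes higher at rest, 458 could be compared with LPS, and 154 of them (33.6%) were higher there and 22 (4.8%) lower. Among the 13677 genes compared in both pairs, 3.28% were higher and 3.8% lower with LPS. Of the 383 lower at rest, 244 could be compared, and 64 (26.2%) were lower with LPS and 23 (9.43%) higher, beside the same 3.8% and 3.28%. Calls in the opposite direction were thus also above the share over all genes. The median log2 ratio in the LPS pair was 0.82 for genes higher and -0.50 for genes lower at rest. Both pairs differ in sex as well as genotype.

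Zinc-finger genes were common among the genes called higher. This grouping was chosen after the values were seen. Of 346 genes compared whose symbol starts with Zfp, 43 (12.4%) were higher and 8 (2.31%) lower, beside 4.22% and 2.57% of all genes outside the class, with a median of 0.18. Of the 43, 18 lie on chromosome 17, which holds 45 of the 346 compared, so the higher genes were not spread evenly over the family. Zfp758 (chr17:22361453-22377281) had 50 and 411 counts, log2 3.29 (2.87 to 3.75), and 92 and 537 with LPS. On chromosome 4, Zfp991 stood at 10.2 and 81.2 CPM, log2 3.0 (2.86 to 3.14), and at 22 and 82.4 CPM with LPS. Zfp984 stood at 4.96 and 40.6 CPM, log2 3.03 and with the overlapping Gm20707 2.25, and at 7.24 and 32.8 CPM with LPS. Both deficient libraries were above both wild-type libraries in these 3 genes. Zfp genes are a large family with similar repeats, so reads may be shared among copies.

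Called genes also lay side by side. There were 9 runs of 3 or more neighbouring compared genes called in the same direction. The longest held 9 genes at chr17:21879570-22456689, all higher: Zfp995, Zfp942, Zfp943, Gm7809, Zfp947, Zfp994, Zfp944, Zfp758 and Zfp946, with log2 ratios from 1.75 to 3.50. At chr12:55080262-55263836, Fam177a was flanked by Srp54a, Srp54b and Srp54c, copies of a signal recognition particle subunit, and by 1700047I17Rik2, and all 5 were higher. Srp54b had 328 and 1694 counts at rest and 396 and 1887 with LPS, and 1700047I17Rik2 had 0 and 1088 at rest and 0 and 2826 with LPS. At chr14:51091077-51163018 lay 4 lower ribonuclease genes, Rnase4, Ang, Rnase6 and Rnase2b. Rnase4 stood at 52.3 and 24 CPM, log2 -1.13 (-1.24 to -1.02), and Ang, which shares exonic bases with it, at 7.29 and 0.357 CPM. Their sum gave log2 -1.29.

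The miR-7 loci themselves gave few counts. The libraries were made from poly(A) RNA, and mature microRNAs carry no poly(A) tail. Mir7-1 had 15 and 7 counts, log2 -0.85 (-2.38 to 0.54). Mir7-2 and Mir7b had 0 counts in both resting libraries. At these counts the entries check nothing about the deficiency. Hnrnpk, whose intron holds Mir7-1, stood at 227 and 229 CPM, log2 0.01 (-0.03 to 0.05). Pank3, a coenzyme A synthesis enzyme and host of another microRNA, stood at 61.1 and 107 CPM, log2 0.81 (0.74 to 0.87). The noncoding RNA Oip5os1, known as Cyrano, which directs the decay of miR-7, stood at 99.6 and 108 CPM, log2 0.12 (0.06 to 0.18).

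Around the loci, 7 of 85 genes within 5 Mb of Mir7-1 were higher and 1 lower (9.41% in all). Near Mir7-2 it was 1 of 80 higher and 2 lower (3.75%), and near Mir7b 5 of 62 higher and 1 lower (9.68%), beside 6.78% of all genes outside the class. Neighbouring genes are not independent, and these shares were not tested. Near Mir7b the higher genes included the run Adgre4, Zfp119a, Zfp959 and Zfp119b (chr17:55749984-55949500). Adgre4, an adhesion receptor of myeloid cells, had 270 and 767 counts, log2 1.76 (1.56 to 1.97), and 4 and 16 with LPS. Near Mir7-2, the interferon-induced exonuclease Isg20 was lower, with 229 and 47 counts, log2 -2.03 (-2.52 to -1.57). Its wild-type count was 3.74% of its LPS count, not far above the 1 to 3% class.

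Reported miR-7 targets lay close to equal. Of 48, 44 were compared, 1 was higher and 1 lower, and their median log2 ratio was 0.06. Intervals lay wholly above 0 for 19 of the 44 and wholly below 0 for 11. Among the 14930 genes outside the class, 4550 (30.5%) lay above and 4337 (29%) below. Beyond 2-fold, 4.22% of those genes were higher and 2.57% lower. Relb, a subunit of the noncanonical NF-kB dimer, stood at 17.1 and 39.9 CPM at rest, log2 1.22 (1.10 to 1.35), and at 56.8 and 96.5 CPM with LPS, log2 0.76. Among signalling targets, Irs2, an insulin receptor adaptor, stood at 28.3 and 32.5 CPM, log2 0.20 (0.09 to 0.31). The growth factor receptor Egfr had 136 and 159 counts, log2 0.48 (0.14 to 0.82). The kinase Pak1 stood at 30.8 and 37.9 CPM, log2 0.30 (0.20 to 0.41), and Ptk2, focal adhesion kinase, stood at 14.6 and 19 CPM, log2 0.38 (0.23 to 0.54). Pik3cd, the leukocyte PI3-kinase subunit, stood at 207 and 157 CPM, log2 -0.40 (-0.45 to -0.36), and Mtor at 67.4 and 58.2 CPM, log2 -0.21 (-0.29 to -0.13). Several growth signalling targets thus sat slightly above equal and others slightly below.

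Among targets of transcription and stress, Rela, the main NF-kB subunit, stood at 61.5 and 74 CPM, log2 0.27 (0.19 to 0.34), and Sp1 at 59.2 and 84.5 CPM, log2 0.51 (0.44 to 0.59). Klf4 stood at 49.9 and 34.6 CPM, log2 -0.53 (-0.62 to -0.43), and Keap1, the sensor that holds NRF2 in check, at 46.9 and 30.6 CPM, log2 -0.62 (-0.72 to -0.51). Nlrp3, an inflammasome sensor, stood at 48.4 and 52.3 CPM, log2 0.11 (0.02 to 0.20), and at 367 and 239 CPM with LPS. Parp1 stood at 80.4 and 70.6 CPM, Bcl2 at 16.4 and 18.3 CPM, Vdac1 at 140 and 122 CPM, and Psme3 at 76.8 and 77.6 CPM. Tlr4, the LPS receptor, had 679 and 462 counts at rest, log2 -0.30 (-0.48 to -0.13), and 1474 and 228 with LPS. The other targets reported here were between log2 -0.94 (Map3k9) and 0.32 (Eif4e). Irs1 and Cplx1 had 0 counts in both resting libraries, Rnf183 had 4 and 0, and Zdhhc9, on the X chromosome, was not compared.

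Over all genes with an annotated 3′ UTR, the site classes overlapped. Outside the class the median log2 ratio was 0.01 for 504 genes with an 8mer site, 0.03 for 1185 with a 7mer-m8, 0.05 for 1424 with a 7mer-A1 and -0.01 for 8872 with none. Of the 8mer genes 10 (1.98%) were higher and 16 (3.17%) lower, and of genes with no site 293 (3.3%) and 180 (2.03%), beside 3.39% and 2.02% of the 11985 genes with a 3′ UTR. The classes differ in length, with a median 3′ UTR of 2346.5 bases for 8mer genes and 869 for genes with none. Among 3′ UTRs under 500 bases the medians were 0.08 for 19 8mer genes and -0.07 for 2886 with no site. From 500 to 1000 bases they were -0.03 for 59 and -0.02 for 1987, and from 1000 to 2000 bases -0.003 for 130 and 0.01 for 2222. From 2000 to 4000 bases they were 0.05 for 186 8mer genes and 0.07 for 1469 with no site. Among those of 4000 bases or more they were -0.005 for 110 and 0.11 for 308. In the LPS pair the 8mer and no-site medians were 0.02 and 0.03. A match of letters is not evidence of binding, and no match says that these letters are not in the longest annotated 3′ UTR.

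Among genes with an 8mer site, Tmem127, a transmembrane regulator of growth signalling, stood at 88.4 and 25.7 CPM at rest, log2 -1.78 (-1.88 to -1.68), and at 109 and 109 CPM with LPS. Rell1, a relative of the TNF receptor family member RELT, stood at 21.6 and 52.7 CPM, log2 1.29 (1.18 to 1.40), and at 14.1 and 13.2 CPM with LPS. Clp1, an RNA kinase of 3′ end processing, stood at 10.9 and 3.77 CPM, log2 -1.53 (-1.81 to -1.27), and at 12.1 and 12.9 CPM with LPS. In these 3 genes the LPS pair lay near equal.

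**Figure D4:**
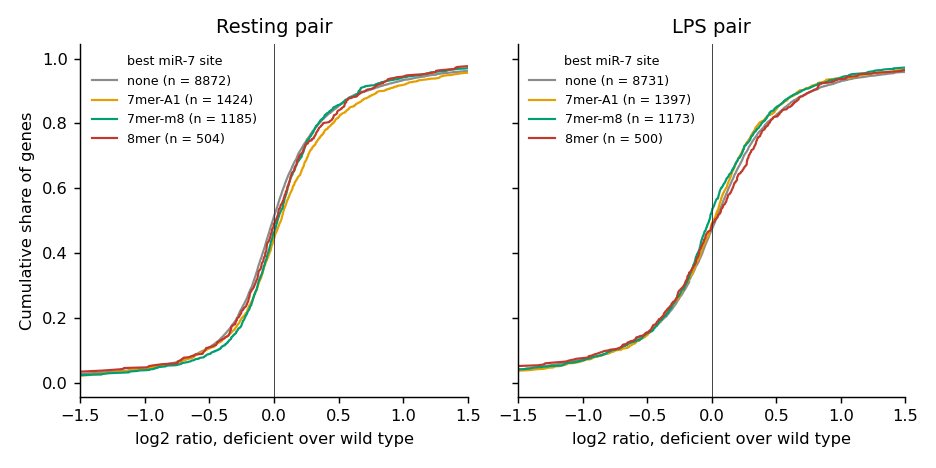
Cumulative share of genes by log2 ratio, deficient over wild type, in the resting pair (left) and the LPS pair (right), by the best miR-7 seed site in the longest 3′ UTR, outside the 1 to 3% class. The 4 curves nearly coincide, with resting medians of 0.01 for 504 8mer genes and -0.01 for 8872 genes with no site.

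Inflammatory genes are given with and without members of the 1 to 3% class, and genes on both sides of equal occurred inside and outside it. Each gene list is described by its counts and its median, to be read beside 4.22% higher and 2.57% lower and a median of -0.001 over all genes outside the class. Of 24 cytokine genes compared, 1 was higher and 5 lower, with a median of -0.51. Without the 6 class members, 1 of 18 was higher and 1 lower, with a median of -0.33, and taking off the fixed share of LPS counts gave a median of 0.06 over the list. Il6, a pyrogenic cytokine, had 162 and 6 counts, log2 -4.5 (-5.97 to -3.35), and its wild-type count was 1.33% of the LPS count. Il1b had 3418 and 510 counts, log2 -2.49 (-2.63 to -2.36), at 1.85% of its LPS count, and Il12b 1511 and 140 counts, log2 -3.18 (-3.44 to -2.93), at 1.86%. These 3 genes are among those that set the share. With it taken off, no wild-type counts remained for Il6 or Il1b, which is by construction. Il12b, at 1.861% against a share of 1.852%, turned to 4.38, a value that rests on the few wild-type counts left. Outside the class, Tnf, the cytokine tumour necrosis factor, stood at 19.8 and 42.4 CPM, log2 1.10 (0.99 to 1.22), and at 557 and 994 CPM with LPS, log2 0.84. Il33, an alarm cytokine, had 0 and 36 counts, at least 14.3-fold higher. Il10, which restrains inflammation, had 20 and 0 counts, at least 5.59-fold lower, at 3.06% of its LPS count. Igf1, a growth factor made by macrophages, stood at 370 and 434 CPM, and Tgfb1 at 286 and 308 CPM.

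Chemokines were read in the same way. Ccl5, which attracts T cells, had 3036 and 194 counts, log2 -3.71 (-3.93 to -3.50), at 1.73% of its LPS count, and Cxcl10, induced by interferon, had 550 and 114 counts, log2 -2.02 (-2.32 to -1.72), also at 1.73%. With the share of LPS counts taken off, neither gene kept any wild-type counts. This is by construction, since both are among the genes that set the share and lie below it. Over all 22 chemokines compared 3 were higher and 2 lower, with a median of 0.01. Outside the class 3 of 17 were higher and 0 lower, with a median of 0.21, and with the share taken off the list's median was 0.77. Ccl22 and Ccl17, ligands of CCR4, stood at 26.3 and 66.8 CPM, log2 1.34 (1.24 to 1.44), and at 6.65 and 17.1 CPM, log2 1.36 (1.17 to 1.56). In the LPS pair they stood at log2 0.79 and 0.34. Ppbp, a platelet chemokine, had 30 and 154 counts, log2 2.61 (2.04 to 3.23). Ccl6 and Ccl9 lay near equal, log2 0.07 and -0.03.

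Interferon-stimulated genes had a median of -0.65, with 1 of 46 higher and 10 lower. Outside the class 1 of 30 was higher and 3 lower, with a median of -0.38, and with the share of LPS counts taken off the list's median was 0.35. Beyond 1.5-fold 1 of these 30 was higher and 9 lower, beside 7.76% and 4.71% of all genes outside the class. Of their intervals 6 lay above 0 and 22 below. Rsad2, the antiviral enzyme viperin, had 5619 and 1430 counts, log2 -1.72 (-1.81 to -1.64), at 1.8% of its LPS count. That is below the share of 1.852%, so no wild-type count remained with the share taken off. The lower genes outside the class were Ifitm3, an entry restriction factor, at 54.7 and 17.1 CPM, log2 -1.68 (-1.80 to -1.56), Irf7, the regulator of interferon production, at 28 and 9.46 CPM, log2 -1.57, and Isg20. Irf7 shares exonic bases with Phrf1, and the sum of both entries gave -0.54. The wild-type counts of Ifitm3, Irf7 and Isg20 were 9.53%, 3.66% and 3.74% of the LPS counts. With the share taken off, Irf7 stood at -0.55 and Ifitm3 at -1.37. Isg20, whose percentage was close to that of Irf7, also lost a large part of its wild-type count. Xaf1, a pro-apoptotic factor, was higher, 8.85 and 21.2 CPM, log2 1.26 (1.09 to 1.43), and 1.27 in the LPS pair. Slfn5 lay near equal, log2 0.26.

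Effector genes of inflammation included some of the lowest ratios of the class. Nos2, the inducible nitric oxide synthase, had 4351 and 148 counts, log2 -4.62 (-4.87 to -4.39), at 1.67% of its LPS count, and was lower in the LPS pair too, log2 -1.72. Ptgs2, the inducible cyclooxygenase, had 1455 and 127 counts, log2 -3.26 (-3.54 to -3.0), at 1.68%. Both percentages are below the share of LPS counts, so no wild-type counts remained for Nos2 or Ptgs2 with the share taken off. Over all 30 effectors compared 2 were higher and 6 lower, with a median of 0.03. Outside the class 2 of 26 were higher and 3 lower, with a median of 0.06, and with the share taken off the list's median was 0.45. Those 2 were Mmp9 and F3, tissue factor, which had 124 and 388 counts at rest, log2 1.90 (1.60 to 2.2), and 670 and 181 with LPS. The 3 lower were Thbs1, the matrix protein thrombospondin, at 349 and 156 CPM, log2 -1.16 (-1.21 to -1.12), the iron-binding protein gene Lcn2 and the acute-phase gene Saa3. In the class itself the 6 farthest above equal included Tnfsf15, a TNF family ligand, with 174 and 681 counts, log2 2.22 (1.98 to 2.47), Clec4e, a receptor for fungal and mycobacterial glycolipids, with 1776 and 2500, log2 0.75, and Acod1, which makes itaconate, with 8383 and 10326, log2 0.55. Slfn5os had 108 and 533 counts at rest, and 4083 and 650 with LPS, and shares exonic bases with Slfn5. With its overlapping entries the sums were 7791 and 8239 counts at rest, log2 0.33, and 52826 and 52914 with LPS.

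NF-kB subunits and feedback regulators stood above equal, and none of the list falls in the class. Of 24 genes 4 were higher and 0 lower beyond 2-fold, 7 higher and 0 lower beyond 1.5-fold, and 16 intervals lay above 0 and 1 below. The median was 0.37, beside -0.001 over all genes outside the class, where 7.76% were higher and 4.71% lower beyond 1.5-fold. Nfkbie and Nfkbia, inhibitors that hold NF-kB in the cytoplasm, stood at 13.1 and 56 CPM, log2 2.10 (1.97 to 2.23), and at 35.1 and 101 CPM, log2 1.52 (1.44 to 1.60). In the LPS pair they stood at 0.01 and 0.02. Tnip3 and Tnip1, partners of the ubiquitin-editing enzyme A20, had log2 ratios of 1.21 (1.14 to 1.29) and 0.84 (0.78 to 0.90) at rest and of -0.24 and -0.04 with LPS. Nfkb2 stood at 42.5 and 78.9 CPM, log2 0.89 (0.81 to 0.97). Zfp36, which destabilises cytokine messages, lay at -0.03. Nfkbie, Nfkbia, Tnip1 and Tnip3 were thus near equal in the LPS pair, and Relb was not.

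Receptors and inflammasomes differed less. In the TLR pathway 1 of 27 genes was higher and 0 lower, with a median of 0.00. That gene was Tlr2, a receptor for bacterial lipoproteins, at 60.9 and 159 CPM, log2 1.38 (1.32 to 1.45), and log2 0.56 with LPS. Unc93b1, which carries endosomal TLRs, lay at 0.02, and the kinase Irak4 at -0.67, or at -0.09 with the overlapping Twf1. Of 14 inflammasome genes 1 was higher, Mefv, which encodes pyrin, with 177 and 368 counts, log2 1.31 (1.05 to 1.58). Txnip stood at 477 and 309 CPM, log2 -0.63, and Naip2 at 96.5 and 147 CPM, log2 0.61.

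Among genes of antigen presentation, which include the MHC class II chains, H2-Eb1 was the member higher beyond 2-fold. H2-Eb1 stood at 716 and 1486 CPM, log2 1.05 (1.03 to 1.07), H2-Aa at log2 0.67 (0.66 to 0.69), H2-Ab1 at 0.66 (0.64 to 0.68) and Cd74, the invariant chain, at 0.61 (0.61 to 0.62). In the LPS pair these 4 genes stood at 0.75, 0.56, 0.75 and 0.58. H2-DMa, a peptide-loading chain, and Ciita, the class II transactivator, stood at log2 0.15 and 0.16 at rest. Outside the class 1 of 21 genes of the list was higher beyond 2-fold and 4 beyond 1.5-fold, with a median of 0.04. B2m, the light chain of class I molecules, lay at -0.07. Cd40, a co-stimulatory receptor in the class, had 404 and 91 counts, log2 -1.90, and turned to 1.34 with the share of LPS counts taken off. Its wild-type count was 2.07% of its LPS count, just above the share of 1.852%.

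Genes of alternative activation divided, 3 of 21 higher and 3 lower, with a median of -0.21. Chil3, a chitinase-like lectin also counted among monocyte markers, stood at 2582 and 727 CPM, log2 -1.83 (-1.85 to -1.81), and at -2.32 in the LPS pair. Arg1, arginase, had 48 and 0 counts at rest, at least 13.4-fold lower, and 377 and 4 with LPS. Retnla had 20 and 0 counts. Higher were F13a1, a coagulation factor subunit, with 68 and 224 counts, log2 1.97 (1.58 to 2.39), and the chemokines Ccl17 and Ccl22. Mrc1, the mannose receptor, stood at 506 and 405 CPM, log2 -0.32. In the wider list of macrophage identity, 1 of 36 was higher, Cx3cr1, the fractalkine receptor, with 46 and 170 counts, log2 2.14 (1.66 to 2.64), and 3 were lower, Itgam, Fcgr1 and the class member Marco, a scavenger receptor.

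In the replication list 0 of 32 genes passed 2-fold in either direction, but 9 were lower and 0 higher beyond 1.5-fold, 26 intervals lay below 0 and 2 above, and the median was -0.61. No member was in the class, and the median stayed at -0.61 with the share of LPS counts taken off. Pcna, the replication clamp, stood at 382 and 255 CPM, log2 -0.58 (-0.62 to -0.55), Mcm6, a helicase subunit, at 67.6 and 33.8 CPM, log2 -1.0 (-1.10 to -0.91), and Rrm2, which makes DNA precursors, at 34.7 and 20.1 CPM, log2 -0.79 (-0.91 to -0.66). In the LPS pair they stood at -0.27, -0.50 and 1.41. Cdc45, a helicase activator, stood at log2 -1.09 (-1.34 to -0.85), and with the overlapping Ufd1 at -0.19. Of 31 mitosis genes 1 was lower, the regulator Foxm1, with 380 and 81 counts, log2 -1.98 (-2.34 to -1.63), and the median was -0.25. Mki67 lay at 0.09 and Top2a at -0.35.

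Lipid and metabolic genes lay mostly within 2-fold. Of 23 genes of cholesterol synthesis 1 was higher, Hmgcs1, an early enzyme of the pathway, at 179 and 371 CPM, log2 1.05 (1.01 to 1.09), and 0.81 with LPS. Idi1, a later enzyme, lay at 0.57. Of 18 genes of fatty acid synthesis 1 was higher, Acss2, which makes acetyl-CoA from acetate, at 16.1 and 37.2 CPM, log2 1.21 (1.08 to 1.34). It shares exonic bases with 3 entries, and their sum gave 0.60. Of 23 genes of LXR and lipid handling 0 were beyond 2-fold in either direction. Abca1, the cholesterol exporter, stood at 199 and 409 CPM, log2 1.04 (1.0 to 1.07), with its interval reaching the limit, and at 0.02 with LPS. Nr1h3, the LXR receptor gene, stood at 0.84 (0.73 to 0.96) and Lpl, lipoprotein lipase, at -0.26. Glycolysis and hypoxia genes had a median of -0.20 outside the class with 0 of 28 beyond 2-fold, and Egln3, an oxygen-sensing hydroxylase in the class, had 114 and 24 counts, and 4998 and 218 with LPS. The kinase gene Pfkfb3 stood at -0.72 (-0.81 to -0.63) at rest and -1.51 with LPS. For the TCA cycle and oxidative phosphorylation the median was -0.15, and the 1 of 28 genes called, Ppargc1a, had 0 and 10 counts, the least that entered the comparison. Idh2, a mitochondrial dehydrogenase, stood at -0.69.

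Stress and housekeeping lists were also near equal. Of 30 genes of the unfolded protein and integrated stress response 1 was higher and 0 lower, with a median of -0.11. The higher gene was Slc7a11, the cystine importer, also listed under antioxidant genes, at 138 and 352 CPM, log2 1.35 (1.30 to 1.39), and at -0.25 with LPS. The chaperones Hspa5 and Calr stood at -0.65 and -0.51. Nfe2l2, which encodes NRF2, stood at 361 and 649 CPM, log2 0.85 (0.82 to 0.87), and its target Gclm at 0.90 (0.82 to 0.97). In the LPS pair these were -0.09 and -0.10. Of the 26 antioxidant and NRF2 genes compared, 1 was higher and 0 lower beyond 2-fold, with a median of 0.06. Of 26 ribosomal protein genes 24 intervals lay below 0, with a median of -0.16 and no gene beyond 1.5-fold, and of 26 lysosome genes 18 lay below 0, with a median of -0.13. Immediate early genes had a median of 0.14 with 0 of 28 higher and 2 lower, Nr4a1, with 234 and 40 counts, log2 -2.29 (-2.82 to -1.81), and Arc, with 20 and 0 counts. Of 34 genes of PI3K and growth factor signalling 0 were beyond 2-fold in either direction and the median was 0.12. Akt2 stood at 80.8 and 39 CPM, log2 -1.05 (-1.14 to -0.96). Clock genes had 0 of 17 beyond 2-fold, with Nfil3 at -1.08 (-1.27 to -0.89). In the microRNA machinery 0 of 17 were called and the median was -0.02. Ago2, the slicing Argonaute, lay at -0.10, and Mov10, a helicase of silencing complexes, at -0.42.

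**Figure D5:**
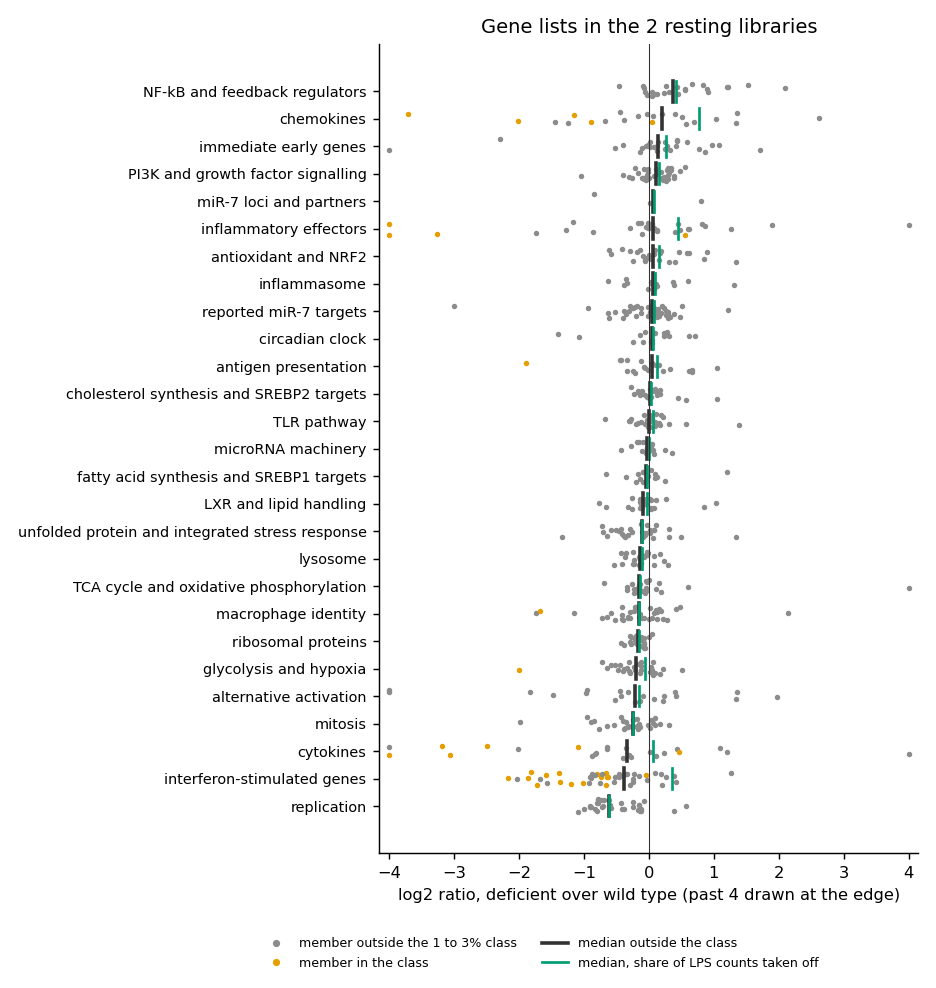
Log2 ratio of each member of 27 gene lists, miR-7 deficient over wild type at rest, with members of the 1 to 3% class marked, values past 4 drawn at the edge, the median outside the class as a thick line and the median of all members after taking off the share of LPS counts as a thin line. NF-kB and feedback regulators have the highest median outside the class, 0.37, and replication the lowest, -0.61, and for interferon-stimulated genes the thin line lies at 0.35 and the thick one at -0.38.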

How the data were processed

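Poly(A) RNA of 4 libraries, 1 a group, was sequenced on a HiSeq 2000. The authors made the deposited counts, whole reads per gene, with Casava 1.8.2, Cutadapt, TopHat 2.0.13 on Bowtie2 and a Partek exon annotation, per the labels and series text, while the submitters' processing notes list HTSeq and mm8. Neither strand nor the handling of reads with several matches is stated.

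Gene IDs were matched to GENCODE M21 (GRCm38), for 99.7% of 52550 entries, and printed coordinates are the GRCm38 positions of the matched genes, not of the authors' alignment. From the counts, TMM factors (edgeR 4.0.16, R 4.3.3) and ratios with exact Clopper-Pearson 95% intervals (SciPy 1.17.1) were computed for genes with 10 or more counts in either resting library, and tested on simulated data. No p-value was computed, since each group is 1 library. Single genes were named by a rule: the 15 farthest above and below equal outside the class by the interval bound nearest 0, at 5 CPM or more, 6 of each in the class, 2 by level and 2 by bound in each list, a set of miR-7, inflammatory and macrophage genes, and called genes near a miR-7 locus. Other list members, genes of runs and genes with a seed site were named after their values were seen. The comparison and the 27 gene lists were chosen with earlier results of these data known. Alternatives were other scaling (including DESeq2 1.42.0 size factors), count filters, fold limits, class limits, thinning, gene overlap, biotype and removal of a share of LPS counts. A few genes that the rule names are not reported here.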

Additional observations from a re-analysis of the deposited data

Results flagged for a closer look

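Some genes lay on opposite sides of equal in the resting and the LPS pair, with both intervals wholly beyond 2-fold. With 1 library a group the difference between the pairs was not tested. The log2 ratio, deficient over wild type, was -4.456 at rest and 4.487 with LPS for Rnd2, and -3.865 and 3.283 for Lrrc8d. The Rnd2 entry shares exonic bases with Vat1, and their sum gave -0.28 at rest. For Il12a, a subunit of interleukin-12 in the 1 to 3% class, the ratios were -3.068 (40 and 4 counts) and 1.316 (1552 and 4365 counts). For F3 they were 1.90 and -2.064, for Slfn5os 2.557 and -2.827, and for Tubb1, a platelet tubulin, 2.172 (9 and 34 counts) and -3.05 (22 and 3 counts). Slfn5os summed with its overlapping entries had 7791 and 8239 counts at rest and 52826 and 52914 with LPS, near equal in both pairs.

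Outside the autosomal comparison, Xist had 28015 counts in the deficient resting library and 24 in wild type, and Tsix 1344 and 0.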

How the results depend on the processing

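The call counts, 640 higher and 421 lower among all genes and 630 and 383 outside the class, stayed within 1.5 times under other scaling and thinning of the wild-type library. So did the counts among all genes with no count filter, which was not run outside the class, and those outside the class with the other class limits. DESeq2 size factors moved the median log2 ratio by -0.038 and total counts by 0.01. With 100 or more counts there were 270 and 139 calls, and 265 and 114 outside the class. At a limit of 1.5-fold there were 1174 and 749, and 1159 and 703 outside, and at 3-fold 351 and 208, and 343 and 187. Without genes that share exonic bases, fewer genes were compared, with 416 and 267 calls, and 411 and 237 outside, and genes higher in both pairs went from 154 to 101. Among protein-coding genes 424 were higher, 417 of them outside the class. With the share of LPS counts taken off wild type, calls over the list members went from 20 higher and 35 lower to 53 and 10, and the lower ones outside the class from 16 to 10. It turned Cd40 to 1.34, Egln3 to 0.45, Il12b to 4.38, Isg15 to 2.16 and Slfn4 to 1.98. The wild-type percentages of Il12b (1.86%), Isg15 (1.97%) and Cd40 (2.07%) were just above the share of 1.852%. Most of their wild-type counts were thus taken off, and their values depend on the exact share, whose interquartile range was 1.57 to 2.37%. Taking off the share moved 39 other named genes by more than counting error and left 84 within it. Named genes with no wild-type counts left, such as Il6, Ccl5 and Nos2, have no finite ratio and are in none of these counts. DESeq2 size factors moved 43 and left 91, and total counts moved 10 and left 124. For the LPS pair, the alternatives on gene overlap and on the share of LPS counts were chosen after seeing the data. No paired analysis was possible because each group is 1 library and no result comes from a test. Genes near the minimum of 10 counts carry the widest intervals, so depth limits them most.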
